A study of Mus musculus with 14 samples.

Results

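The comparison asks which genes calcipotriol changed in cultured mouse hepatic stellate cells whether or not the cells made p62. It uses the 8 stellate cell libraries of a series of 14, and sets all 4 calcipotriol libraries against all 4 vehicle libraries with genotype as a covariate. Of 23420 genes in the table, 12681 passed the filter on low counts and were tested. Calcipotriol is a synthetic vitamin D analogue that activates the vitamin D receptor, and p62 is the autophagy receptor encoded by Sqstm1. The stellate cells were isolated from wild-type (WT) livers or livers lacking p62 (p62KO), and all were immortalized with the SV40 T antigen before culture in DMEM with serum and HEPES. Each genotype had 2 vehicle and 2 calcipotriol libraries. The dose, the exposure time and the number of lines or cultures behind a genotype are not given in the sources used here. P-values therefore measure the spread between libraries, which may be technical, and they do not reach beyond these cells.

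Hepatic stellate cells are the pericyte-like cells of the liver that store retinoids at rest and turn into contractile, matrix-producing myofibroblasts after injury. The vitamin D receptor, encoded by Vdr, is a nuclear receptor that pairs with a retinoid X receptor, binds direct repeats of a hexamer in DNA and recruits coactivators when a ligand is bound. In many tissues the receptor raises Cyp24a1, whose enzyme breaks vitamin D down, and in stellate cells its agonists are known to counter the fibrogenic program driven by transforming growth factor beta (TGF-beta).

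Total counts ranged from 15207117 to 18938666 in the vehicle libraries and from 16566069 to 29079258 in the calcipotriol libraries, so the treated libraries were deeper in both genotypes. Sqstm1 was at 316 to 340 CPM (counts relative to the library's total after TMM scaling) in the WT libraries and at 0.211 to 0.835 CPM in the p62KO libraries, as their labels say. Of 24 stellate cell, pericyte and fibroblast markers 20 passed the filter, while Lrat, which makes the retinyl esters of resting stellate cells, had no count in any library. A marker could pass through a single genotype, as Thy1 did, at 173 to 417 CPM in p62KO and at most 0.0679 CPM in WT. Replicates were close in WT vehicle, where the chi-square per degree of freedom between the pair was 1.66. It was 11.7 in WT calcipotriol, and the pairs were far apart in p62KO vehicle at 58 and in p62KO calcipotriol at 190. This measure also grows with depth, and the p62KO calcipotriol libraries were the deepest. The first p62KO vehicle library and the second p62KO calcipotriol library stood apart from the others. The acute-phase gene Saa3, singled out after its values were seen, was at 298 CPM in the first p62KO vehicle library and at 0.158 CPM in the second. It was also at 30.7 CPM in the first WT calcipotriol library, which was kept in all fits but its own omission, and at 0.544 CPM in the second. Results are therefore also given without both libraries.

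Calcipotriol raised 5 genes past the test threshold and lowered none, and the 5 were Cyp24a1, Rassf2, Afap1l2, Krt17 and Cib2. Promoter sequences from RefSeq (GRCm38.p6) were on hand for 3 of these genes and for Vdr, and are shown because the receptor acts through hexamers that can lie near a gene's start. Each runs from 250 bases before to 50 bases after an annotated start, 5′ to 3′ on the gene's strand. Capitals mark every match to 8 hexamers, which read A or G, then G, then G or T, then T, then C or G, then A, as AGGTCA does, and a match on the other strand appears as its reverse complement. The Rassf2 window is chr2:132030275-132030574, the Afap1l2 window chr19:57008526-57008825, the Cib2 window chr9:54560141-54560440 and the Vdr window chr15:97908247-97908546, all on the minus strand.
Rassf2: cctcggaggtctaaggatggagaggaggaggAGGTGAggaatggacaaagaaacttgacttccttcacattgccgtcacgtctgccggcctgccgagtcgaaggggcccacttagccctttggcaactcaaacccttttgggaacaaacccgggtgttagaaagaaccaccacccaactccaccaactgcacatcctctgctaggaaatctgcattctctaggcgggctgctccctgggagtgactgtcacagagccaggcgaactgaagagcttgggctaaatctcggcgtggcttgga
Afap1l2: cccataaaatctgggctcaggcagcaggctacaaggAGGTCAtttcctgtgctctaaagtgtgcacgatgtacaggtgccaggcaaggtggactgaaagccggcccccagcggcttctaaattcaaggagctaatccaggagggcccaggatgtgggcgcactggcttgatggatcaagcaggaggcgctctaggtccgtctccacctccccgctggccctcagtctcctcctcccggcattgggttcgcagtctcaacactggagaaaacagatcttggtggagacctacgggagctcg
Cib2: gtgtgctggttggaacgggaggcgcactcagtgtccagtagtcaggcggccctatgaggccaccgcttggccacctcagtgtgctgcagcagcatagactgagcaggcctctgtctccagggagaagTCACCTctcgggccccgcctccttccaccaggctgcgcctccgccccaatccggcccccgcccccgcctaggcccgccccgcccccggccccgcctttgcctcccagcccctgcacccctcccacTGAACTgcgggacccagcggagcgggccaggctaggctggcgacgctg
Vdr: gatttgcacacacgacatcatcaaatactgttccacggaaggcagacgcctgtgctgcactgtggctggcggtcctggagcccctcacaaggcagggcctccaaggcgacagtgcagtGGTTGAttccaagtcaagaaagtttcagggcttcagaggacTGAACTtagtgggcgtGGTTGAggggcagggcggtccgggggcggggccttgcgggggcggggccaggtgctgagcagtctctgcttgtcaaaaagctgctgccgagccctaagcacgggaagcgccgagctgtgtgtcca
None of these windows held a direct repeat of the hexamers with a spacer of 3 bases on either strand, an arrangement found in 84 of 32851 promoters of the same length (0.256%). Single hexamers numbered 1 in Rassf2, 1 in Afap1l2, 2 in Cib2 and 3 in Vdr, and at least 1 hexamer was present in 66.7% of all promoters. A match describes the letters of the window and says nothing of binding.

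Among the genes that passed, the largest rise was in Cyp24a1 (ENSMUSG00000038567.5, chr2:170482708-170497145 on GRCm38), the hydroxylase that inactivates vitamin D. In WT cells its level was 9.85 and 8.51 CPM with vehicle and 65.4 and 86.0 CPM with calcipotriol. In p62KO cells it was 1.83 and 5.12 CPM with vehicle and 32.9 and 23.9 CPM with calcipotriol. All 4 treated libraries lay above all 4 vehicle libraries, and both p62KO levels were below the WT level of the same treatment. The rise was 8.21-fold, a log2 fold change of 3.04 ± 0.288 (SE; edgeR quasi-likelihood test, adjusted p = 0.00961). Within each genotype the log2 fold change was 3.04 in WT and 3.03 in p62KO. In bulk RNA, a change in the number of cells that express a gene and a change in the RNA per cell cannot be told apart.

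Rassf2 (ENSMUSG00000027339.15, chr2:131989415-132030258) encodes a Ras-association domain protein that binds MST kinases. Its level was 3.19 and 3.21 CPM in WT vehicle, 14.5 and 13.3 CPM in WT calcipotriol, 2.51 and 2.48 CPM in p62KO vehicle and 13.3 and 14.8 CPM in p62KO calcipotriol. The treated libraries of both genotypes fell in the same narrow range and did not overlap with vehicle. The log2 fold change was 2.30 ± 0.170 (SE; edgeR, adjusted p = 0.00342), the smallest p of all genes tested.

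Afap1l2 (ENSMUSG00000025083.18, chr19:56912361-57008228) encodes an adaptor of the actin filament-associated protein family that is a substrate of Src kinases. Its level was 9.38 and 7.90 CPM in WT vehicle, 28.5 and 38.7 CPM in WT calcipotriol, 11.7 and 14.4 CPM in p62KO vehicle and 45.9 and 60.2 CPM in p62KO calcipotriol. Treated and vehicle libraries did not overlap, and p62KO cells were the higher under both treatments. The log2 fold change was 1.99 ± 0.168 (SE; edgeR, adjusted p = 0.00531).

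Cib2 (ENSMUSG00000037493.6, chr9:54544794-54560218) encodes a calcium- and integrin-binding protein. It stood at 17.2 and 17.3 CPM in WT vehicle and 44.5 and 57.0 CPM in WT calcipotriol, and at 26.4 and 26.2 CPM in p62KO vehicle and 56.2 and 90.0 CPM in p62KO calcipotriol. The 4 vehicle libraries agreed closely within each genotype, and the treated pairs were wider but well above them. The log2 fold change was 1.51 ± 0.172 (SE; edgeR, adjusted p = 0.0314). Krt17 (ENSMUSG00000035557.9, chr11:100256217-100261029), a type I keratin of epithelial appendages, was low throughout. It stood at 0.340 and 0.469 CPM in WT vehicle and 2.47 and 3.16 CPM in WT calcipotriol, and at 0.574 and 1.37 CPM in p62KO vehicle and 6.10 and 10.3 CPM in p62KO calcipotriol. Its log2 fold change was 2.95 ± 0.359 (SE; edgeR, adjusted p = 0.0448), and its lowest level rests on 5 counts.

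**Figure D1:**
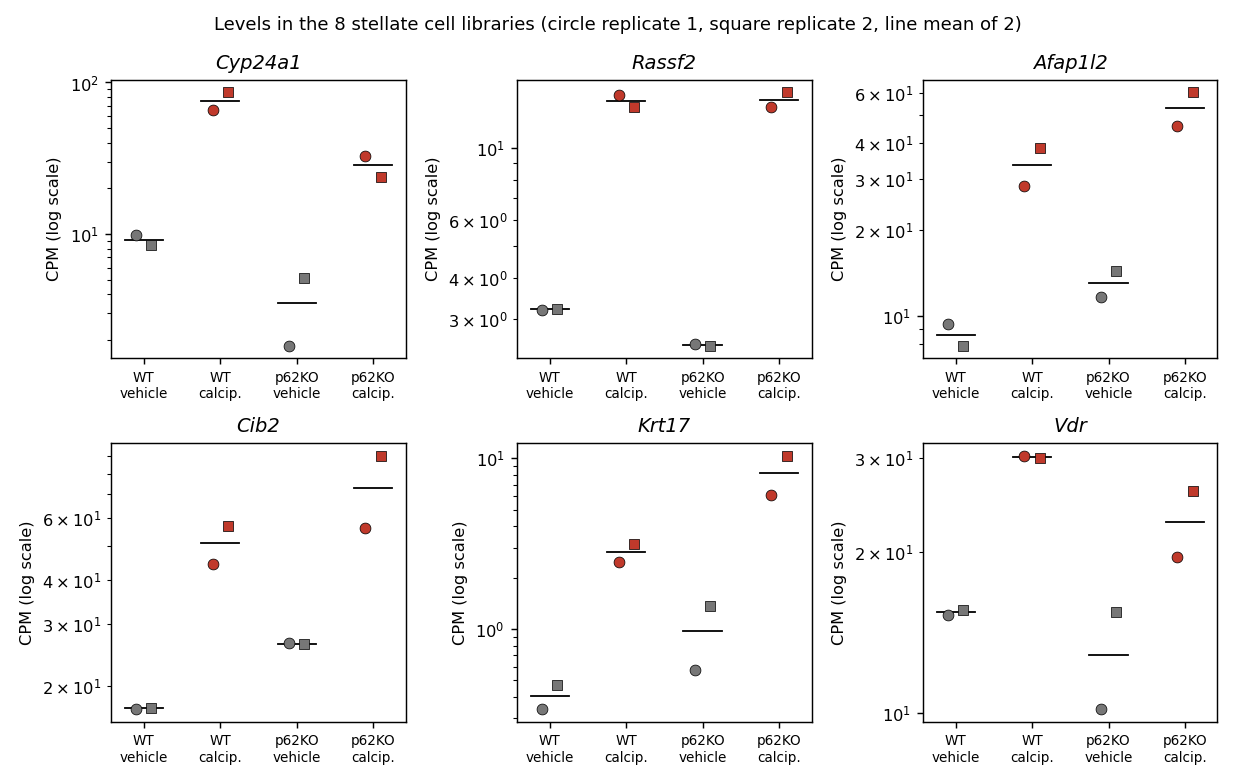
CPM on a log scale for the 5 genes that passed the test and for Vdr, in each of the 8 libraries, with circles for replicate 1, squares for replicate 2 and lines for the mean of each pair. In every panel both treated libraries of a genotype sit above both of its vehicle libraries, and Cyp24a1 reaches 86.0 CPM in WT and 32.9 CPM in p62KO.

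These 5 genes made up 0.0394% of the genes tested, and 681 genes had an unadjusted p under 0.05, of which 433 were higher and 248 lower. Without both libraries that stood apart, all 5 still rose, with log2 fold changes of 2.95 for Cyp24a1, 2.23 for Rassf2, 1.86 for Afap1l2, 1.40 for Cib2 and 2.46 for Krt17. When single libraries were left out in turn, Rassf2 passed in 8 of 8 fits, Afap1l2 in 7, Cyp24a1 in 5, Cib2 in 2 and Krt17 in 0. Afap1l2 failed without WT vehicle replicate 2 (adjusted p = 0.0518 in edgeR). Cyp24a1 failed without either WT vehicle library or without WT calcipotriol replicate 2, with adjusted p no higher than 0.0725 in edgeR, while its log2 fold change stayed between 2.82 and 3.36. For Cib2 and Krt17 the adjusted p in edgeR reached 0.251 and 0.263.

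Vdr itself (ENSMUSG00000022479.15, chr15:97854425-97910630) was higher with calcipotriol in both genotypes without passing the edgeR threshold. Its level was 15.3 and 15.6 CPM in WT vehicle, 30.3 and 30.1 CPM in WT calcipotriol, 10.2 and 15.5 CPM in p62KO vehicle and 19.6 and 26.0 CPM in p62KO calcipotriol. The 4 treated libraries lay above the 4 vehicle libraries. The log2 fold change was 0.90 ± 0.170 (SE; edgeR, adjusted p = 0.244), and DESeq2 called it with an adjusted p of 0.00175. Among the 16 tested genes of the receptor, its partners and its cofactors, which include the retinoid X receptors Rxra and Rxrb, none passed in edgeR and Vdr alone was called by DESeq2. The median log2 fold change of these 16 genes was -0.01, as was that of all genes tested.

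Of 21 tested vitamin D receptor target genes known from other tissues, Cyp24a1 alone passed. Both treated libraries lay above both vehicle libraries in each genotype for 4 members and below them for 1, where 5.56% and 6.73% of all tested genes did so. The median log2 fold change was 0.09 over both genotypes, 0.20 in WT and -0.28 in p62KO. Among members that did not pass, Lrp5, a Wnt co-receptor, stood at 112 and 111 CPM in WT vehicle, 159 and 163 CPM in WT calcipotriol, 56.1 and 58.2 CPM in p62KO vehicle and 89.2 and 198 CPM in p62KO calcipotriol. The second p62KO calcipotriol library, which stood apart, held the highest of these Lrp5 values. Gadd45a, a growth-arrest gene singled out after its values were seen, had a log2 fold change of 0.63 ± 0.167 (SE; edgeR, adjusted p = 0.642). Trpv6, Calb1, Cyp3a11 and Fbp1, which are targets in gut, kidney and liver cells, had no count in any library.

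DESeq2, run as an alternative on the same 12681 genes, called 47 genes (0.371%), 44 of them higher (0.347%) and 3 lower (0.0237%), and these included the 5 called by edgeR. The other 42 had adjusted p-values from 0.0805 to 0.642 in edgeR, so their values are given as responses called by DESeq2 alone, chosen for naming after they were seen. All 47 moved the same way in both genotypes, and in 46 the treated pair did not overlap with the vehicle pair in either genotype. Those counts come from the contrast that chose the genes, and nothing is read from them. The exception was Gzme, a granzyme gene, at no count and 0.422 CPM in p62KO vehicle and at 0.417 and 0.537 CPM in p62KO calcipotriol. Among the 44 genes the median fold was 2.30, and the smallest was 1.45 in Nedd9, a scaffold protein of focal adhesions.

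**Figure D2:**
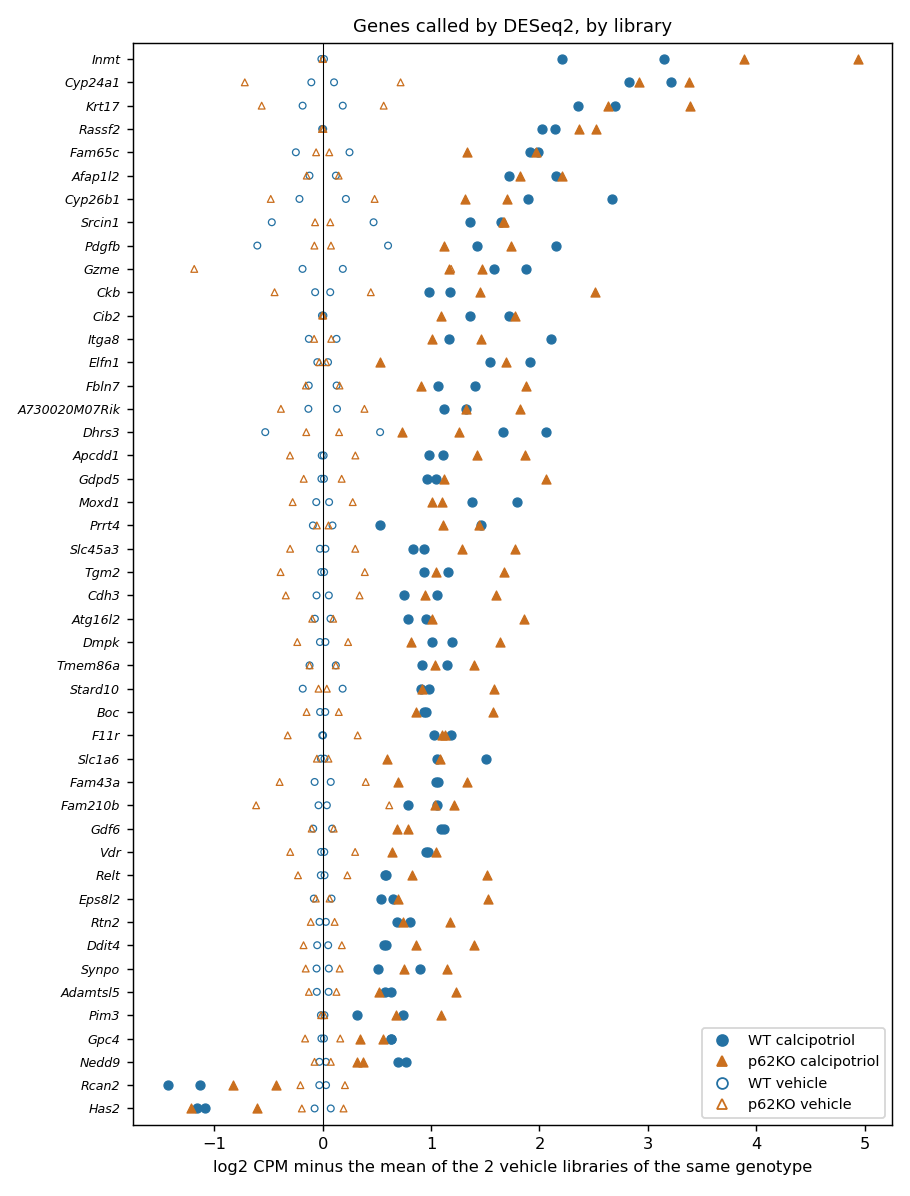
Log2 CPM of 46 of the 47 genes called by DESeq2, relative to the mean of the 2 vehicle libraries of the same genotype, with circles for WT, triangles for p62KO, filled marks for calcipotriol and open marks for vehicle. The filled marks lie to the right of 0 for the 44 higher genes and to the left for Has2 and Rcan2, and Gzme has a vehicle mark among the treated ones.

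Of the genes called by DESeq2 alone, F11r, which encodes the junctional adhesion molecule JAM-A, was at 58.3 and 58.6 CPM in WT vehicle, 119 and 133 CPM in WT calcipotriol, 46.3 and 72.5 CPM in p62KO vehicle and 125 and 127 CPM in p62KO calcipotriol. Its log2 fold change was 1.09 ± 0.149 (SE; edgeR, adjusted p = 0.0805). Itga8, the integrin alpha subunit found on stellate cells, had a log2 fold change of 1.51 from a vehicle level of 1.41 to 3.27 CPM. Cdh3, which encodes P-cadherin, differed strongly in level between the genotypes, at 0.611 to 1.44 CPM in WT and 33.1 to 127 CPM in p62KO, and was 2.29-fold higher with calcipotriol over both. Synpo, an actin-binding protein, had a log2 fold change of 0.84, and Tgm2, a transglutaminase that cross-links matrix proteins, one of 1.20.

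Boc, a co-receptor of the Hedgehog pathway in the same set, stood at 26.6 and 27.5 CPM in WT vehicle, 51.9 and 52.3 CPM in WT calcipotriol, 23.0 and 28.2 CPM in p62KO vehicle and 46.3 and 75.7 CPM in p62KO calcipotriol. Apcdd1, an inhibitor of Wnt signalling, had a log2 fold change of 1.34, and Gdf6, a ligand of the bone morphogenetic protein (BMP) family, one of 0.94. Pdgfb, the ligand of the platelet-derived growth factor receptor on stellate cells, was low, at 0.204 to 1.64 CPM with vehicle and 1.14 to 5.40 CPM with calcipotriol. Ddit4, an inhibitor of the growth kinase complex mTORC1, had a log2 fold change of 0.86. Tmem86a, an enzyme of ether lipid breakdown and the next in order of p after the 5 genes that passed, had a log2 fold change of 1.13 ± 0.154 (SE; edgeR, adjusted p = 0.0805).

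Cyp26b1 and Dhrs3 of this set handle retinoids, the vitamin A compounds that resting stellate cells store. Cyp26b1, which degrades retinoic acid, was at 1.02 and 1.41 CPM in WT vehicle, 8.16 and 4.74 CPM in WT calcipotriol, 1.20 and 2.43 CPM in p62KO vehicle and 4.39 and 5.80 CPM in p62KO calcipotriol. Dhrs3, which reduces retinaldehyde to retinol, was at 1.09 and 0.469 CPM in WT vehicle, 3.33 and 2.50 CPM in WT calcipotriol, 5.69 and 4.59 CPM in p62KO vehicle and 8.56 and 12.4 CPM in p62KO calcipotriol. Both genes were low, and for both the treated pair lay above the vehicle pair of its genotype. The log2 fold change was 1.92 ± 0.350 for Cyp26b1 (SE; edgeR, adjusted p = 0.224) and 1.39 ± 0.313 for Dhrs3 (SE; edgeR, adjusted p = 0.521). Over the 20 tested genes of the quiescent and retinoid list, none passed in edgeR, 3 lay above vehicle in both genotypes and 0 below, beside 5.56% and 6.73% of all tested genes, and the median log2 fold change was 0.06.

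Inmt, a methyltransferase of small amines and another of the 47 genes, was at 2.11 and 2.14 CPM in WT vehicle and at 10.2 and 19.6 CPM in WT calcipotriol. In p62KO it had no count in either vehicle library and stood at 1.40 and 3.01 CPM with calcipotriol. Against a limit of 3 counts over the vehicle pair, the p62KO rise was at least 28.3-fold, a bound for counting error only. Neither genotype's change in Inmt passed the edgeR threshold.

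No gene fell by the edgeR test, and 248 were lower at an unadjusted p under 0.05. Falls were named for the 6 genes of smallest p that met the other conditions of the naming rule. The largest fall among these 6 was in Has2, the hyaluronan synthase of mesenchymal cells, which DESeq2 called. The cytokine gene Il6 met the same conditions and fell further, with a log2 fold change of -1.80, but had a larger p. Has2 was at 77.7 and 86.2 CPM in WT vehicle, 36.6 and 38.5 CPM in WT calcipotriol, 37.2 and 48.6 CPM in p62KO vehicle and 28.0 and 18.2 CPM in p62KO calcipotriol. The treated pair lay below the vehicle pair in both genotypes, with a log2 fold change of -1.01 ± 0.169 (SE; edgeR, adjusted p = 0.186). Rcan2, a regulator of the phosphatase calcineurin, was at 80.5 and 84.0 CPM in WT vehicle and 30.4 and 37.5 CPM in WT calcipotriol, and at 8.46 and 6.33 CPM in p62KO vehicle and 5.42 and 4.08 CPM in p62KO calcipotriol. Rcan2 was mainly a WT transcript in these cells and was called lower by DESeq2, with a log2 fold change of -0.98 ± 0.190 (SE; edgeR, adjusted p = 0.264). Shc4, Sox9 and Peg10, an adaptor, a transcription factor and an imprinted gene, had log2 fold changes of -0.75, -0.55 and -0.53 and were called by neither tool.

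No gene of the lists that describe the matrix-producing myofibroblast passed in edgeR. Among 41 tested collagen and matrix genes the median log2 fold change was 0.07, with 1 member above vehicle and 3 below in both genotypes, beside 5.56% and 6.73% of all tested genes. Col1a1, a chain of type I collagen, was at 2256 and 2325 CPM in WT vehicle, 2279 and 2693 CPM in WT calcipotriol, 3061 and 3386 CPM in p62KO vehicle and 4478 and 8028 CPM in p62KO calcipotriol. The WT pairs overlapped, and the highest value was that of the p62KO calcipotriol library that stood apart. The log2 fold change was 0.54 ± 0.232 (SE; edgeR, adjusted p = 0.642) over all 8 libraries and 0.22 ± 0.0786 (SE) in the 6 without those that stood apart. Acta2, the smooth muscle actin of activated stellate cells, was at 739 and 713 CPM in WT vehicle, 1053 and 747 CPM in WT calcipotriol, 2632 and 2691 CPM in p62KO vehicle and 2760 and 4284 CPM in p62KO calcipotriol, with a log2 fold change of 0.36 ± 0.172 (SE; edgeR, adjusted p = 0.642). Timp1, an inhibitor of matrix metalloproteinases, was at 294 and 271 CPM in WT vehicle and 208 and 272 CPM in WT calcipotriol. In p62KO it was at 537 and 436 CPM with vehicle and 397 and 377 CPM with calcipotriol. The pairs overlapped in WT, and the treated pair lay below the vehicle pair in p62KO. The log2 fold change was -0.28 ± 0.134 (SE; edgeR, adjusted p = 0.642). Tgfb1, the TGF-beta ligand, differed by 0.06 ± 0.135 on the log2 scale (SE; edgeR, adjusted p = 0.833). These 4 genes were singled out as usual readouts of fibrosis after their values were seen.

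Among 34 matrix remodelling genes the median log2 fold change was 0.05, with 2 above vehicle and 3 below in both genotypes. The 35 genes of the TGF-beta list had a median of -0.08, with 4 above and 6 below, and Bmp4, a BMP ligand, had the smallest p, with a log2 fold change of 0.58 ± 0.148 (SE; edgeR, adjusted p = 0.642). The 23 contractile genes had a median of 0.14, with 2 above and 3 below. Their median was 0.47 above the vehicle mean in the second p62KO calcipotriol library and -0.01 in the first, and the joint median without both libraries that stood apart was -0.00. The 27 targets of YAP and SRF, the transcription factors that follow cell tension, had a median of -0.02, with 0 above and 4 below. Of all tested genes 5.56% lay above and 6.73% below in both genotypes. The median of all tested genes was -0.01, and the medians of these 5 lists lay between -0.08 and 0.14. Vcan, the proteoglycan versican, had the smallest p of the matrix list, at 86.5 and 91.8 CPM in WT vehicle, 66.7 and 63.6 CPM in WT calcipotriol, 126 and 65.6 CPM in p62KO vehicle and 56.1 and 39.6 CPM in p62KO calcipotriol.

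**Figure D3:**
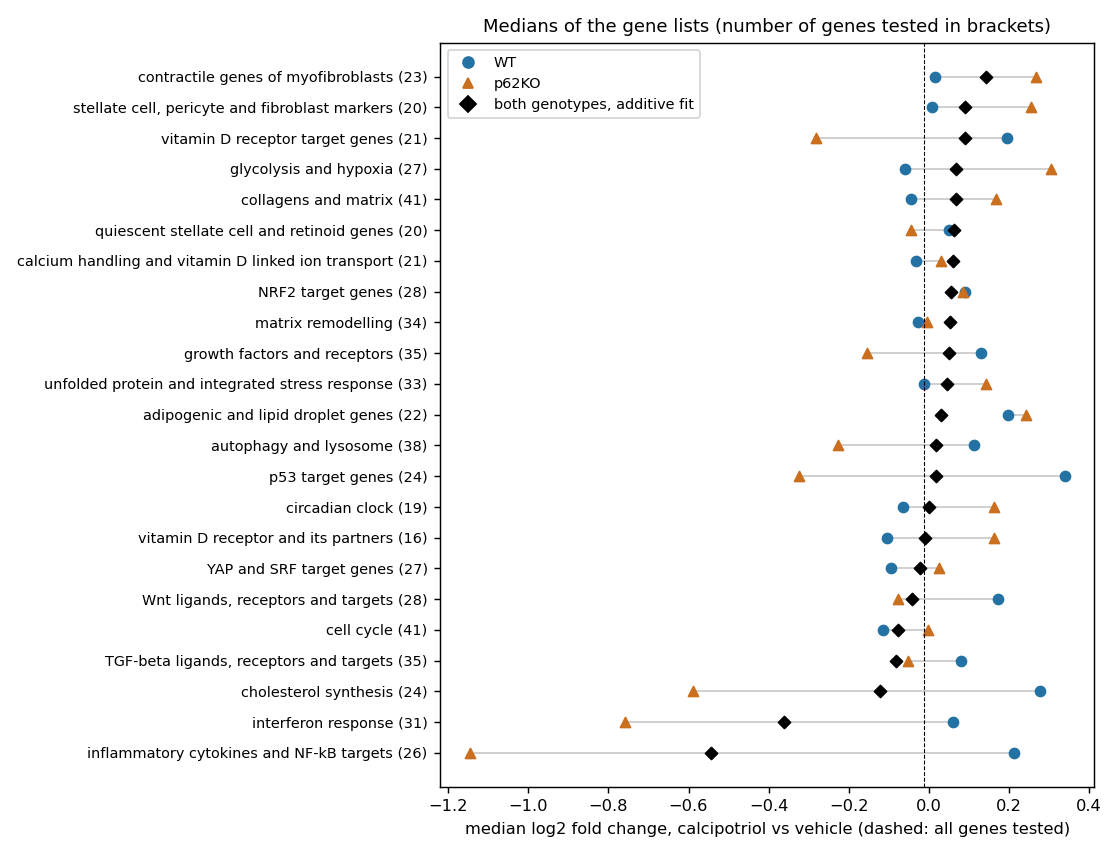
Median log2 fold change of 23 gene lists, those of other cell types left out, with circles for WT, triangles for p62KO and diamonds for both genotypes together, and a dashed line at the median of all genes tested. Of the lists drawn, the inflammatory one has the widest split, at 0.21 in WT and -1.15 in p62KO, and the contractile one the highest joint median, at 0.14.

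The inflammatory genes differed between the genotypes. Over 26 tested cytokine and NF-kB target genes the median log2 fold change was -0.54, 0.21 in WT and -1.15 in p62KO, and none passed. The split followed single libraries. Relative to the vehicle mean of the genotype, the list's median was 1.16 in the first p62KO vehicle library and -1.16 in the second, and -0.71 and -1.21 in the p62KO calcipotriol libraries. Both treated p62KO libraries were therefore near the second vehicle library and far from the first. In WT the first calcipotriol library had a median of 0.63 and the second -0.08. Without both libraries that stood apart the list's joint median was 0.22. Macrophage markers are a measure of other cells that could carry these transcripts. Of 17 macrophage markers 4 passed the filter, their summed level was 14.7 to 54.6 CPM with vehicle and 15.2 to 35.8 CPM with calcipotriol, and the defining markers Clec4f, Marco, Cd163 and C1qa had no count in any library. The highest of these sums was that of the first p62KO vehicle library. The median log2 fold change of the 4 tested markers was 1.11 in WT and -1.01 in p62KO, a wider split than that of the inflammatory list, and its part in the latter was not tested. Of 14 lymphocyte markers none passed the filter.

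Il6, an inflammatory cytokine, was at 8.76 and 7.97 CPM in WT vehicle, 5.00 and 4.95 CPM in WT calcipotriol, 23.4 and 4.33 CPM in p62KO vehicle and 2.84 and 0.966 CPM in p62KO calcipotriol. The treated pair was lower in both genotypes, with a log2 fold change of -1.80 ± 0.639 (SE; edgeR, adjusted p = 0.642). Tnfaip3, a feedback inhibitor of NF-kB, was at 57.9 and 59.9 CPM in WT vehicle, 42.5 and 37.4 CPM in WT calcipotriol, 63.3 and 38.3 CPM in p62KO vehicle and 34.6 and 35.9 CPM in p62KO calcipotriol. It had the smallest p of the list and a log2 fold change of -0.54 ± 0.164 (SE; edgeR, adjusted p = 0.642). In the 6 libraries without those that stood apart, both genes fell, with log2 fold changes of -0.69 ± 0.165 for Il6 (SE; edgeR, adjusted p = 0.0368) and -0.41 ± 0.0926 for Tnfaip3 (SE; edgeR, adjusted p = 0.029). Il6 was singled out after its values were seen.

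The interferon list (31 tested, median -0.36, 0.06 in WT and -0.76 in p62KO) and the cholesterol synthesis list (24 tested, median -0.12, 0.28 in WT and -0.59 in p62KO) split in the same manner. In both, the first p62KO vehicle library was the highest of the p62KO libraries, at 0.89 and 0.38 above its genotype's vehicle mean on the log2 scale. For the cholesterol list the first WT calcipotriol library was higher still against its own vehicle mean, at 0.48, and the second was at -0.02. Without both libraries that stood apart, the joint medians changed sign, to 0.16 for the interferon list and 0.15 for the cholesterol list. The p53 target list had a median of 0.02, with 5 of its 24 genes above vehicle in both genotypes and 9 apart in opposite directions, beside 5.56% and 8.04% of all tested genes. No gene of these lists passed in edgeR.

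Other programs were tested from their lists, and no member passed in edgeR. The 41 cell cycle genes had a median log2 fold change of -0.08, with 2 above vehicle and 4 below in both genotypes, where 5.56% of all tested genes lay above and 6.73% below. Cenpf, a kinetochore protein, had the smallest p of that list, at a log2 fold change of -0.37 ± 0.159 (SE; edgeR, adjusted p = 0.642). The 33 genes that answer misfolded protein and other cell stress had a median of 0.05 with 5 above and 4 below, the 35 growth factors and receptors one of 0.05 with 4 above and 2 below, and the 28 Wnt genes one of -0.04 with 1 above and 1 below. The 21 genes of calcium handling had a median of 0.06 with 2 above and 3 below, the 27 of glycolysis and hypoxia 0.07 with 2 above and 1 below, the 22 adipogenic and lipid droplet genes 0.03 with 0 above and 0 below, and the 19 clock genes -0.00 with 1 above and 0 below. The 28 targets of NRF2, whose inhibitor KEAP1 is bound by p62, had a median of 0.05 with 2 above and 0 below, and the 38 autophagy and lysosome genes one of 0.02 with 1 above and 0 below.

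Markers of other liver cells were mostly under the filter. Of 17 hepatocyte markers Apob alone passed it, 8 had no count in any library, and their summed level was 0.264 to 1.93 CPM with vehicle and 0.379 to 1.67 CPM with calcipotriol. Of 13 endothelial markers 3 passed the filter, with sums of 6.83 to 121 CPM and 11.3 to 270 CPM, and of 9 mesothelial markers 4 passed, with sums of 5.43 to 10.7 CPM and 6.93 to 10.8 CPM. Eng held most of the endothelial sum in p62KO, at 113 to 265 CPM, and was at 0.670 to 1.61 CPM in WT. Of 13 cholangiocyte and epithelial markers 4 passed the filter, with sums of 183 to 984 CPM with vehicle and 201 to 851 CPM with calcipotriol, sums to which Spp1, which is also a stellate cell transcript, contributes. No marker of these lists changed by the edgeR test.

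**Figure D4:**
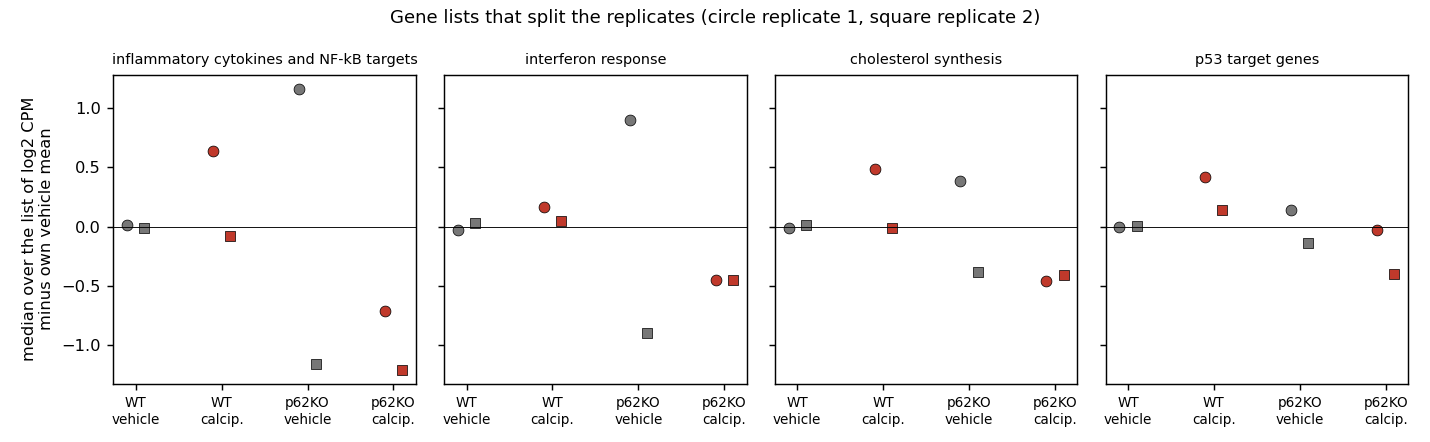
Median over each of 4 gene lists of log2 CPM minus the vehicle mean of the same genotype, in each library, with circles for replicate 1, squares for replicate 2, grey for vehicle and red for calcipotriol. The p62KO vehicle replicates lie 1.16 above and 1.16 below 0 for the inflammatory list, while the WT vehicle replicates lie close to 0 in all 4 panels.

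Without both libraries that stood apart, 816 of 12797 genes passed in edgeR (6.38%), 324 higher (2.53%) and 492 lower (3.84%). That fit has 3 residual degrees of freedom and a single p62KO library in each arm, which it takes to vary like the WT libraries. Its libraries were all among those that DESeq2 used, so genes it shares with the DESeq2 set are not independent support for that set. Vdr, called by DESeq2 in the full set, had a log2 fold change of 0.76 ± 0.128 (SE) in this fit. Of the 21 receptor targets, Cyp24a1, Lrp5, Gadd45a, Slc8a1 and Dusp1 rose and Ccnc fell. Of the 41 matrix genes, Fbn1, Dcn and Thbs2 rose and Col6a3, Postn, Thbs1, Ctgf and Vcan fell, and of the 35 TGF-beta genes Id3, Bambi and Bmp4 rose, and Ctgf, Ltbp1, Inhba and Grem1 were among those that fell. Of the 41 cell cycle genes, Mki67, Top2a, Bub1 and Cenpf fell and none rose. Has2 fell, with a log2 fold change of -1.01 ± 0.0809 (SE; edgeR, adjusted p = 0.000136), and Cyp26b1 rose, with one of 1.80 ± 0.357 (SE; edgeR, adjusted p = 0.0188).

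The response was also compared between the genotypes. No gene had a treatment effect that differed by genotype in edgeR, where the smallest adjusted p was 0.708 and 677 genes had an unadjusted p under 0.05, and DESeq2 called none either, with 823 unadjusted. Leaving out 1 library changed this in 2 of 8 cases, to 7 genes in edgeR without the second p62KO vehicle library and to 2514 without the first p62KO calcipotriol library. For the 5 genes that passed, the interaction p ran from 0.293 in Rassf2 to 0.986 in Cyp24a1 (edgeR, unadjusted), and such values do not show that the responses were equal. Rassf2 had log2 fold changes of 2.12 ± 0.243 in WT and 2.49 ± 0.244 in p62KO, Afap1l2 1.96 ± 0.254 and 2.02 ± 0.249, Cib2 1.55 ± 0.256 and 1.47 ± 0.253, and Krt17 2.78 ± 0.565 and 3.07 ± 0.497 (SE).

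Within a genotype, edgeR called no gene in WT, where 301 had an unadjusted p under 0.05 and DESeq2 called 16 (0.126%), and none in p62KO, where 1714 had an unadjusted p under 0.05 and DESeq2 called 53 (0.418%). DESeq2 called 7 genes in both genotypes, F11r, Krt17, Afap1l2, Rassf2, Cyp24a1, Inmt and Cib2, and all 7 were higher with calcipotriol in each. A fit of the 4 WT libraries alone called 345 genes in edgeR. In p62KO, edgeR called 195 genes without the second vehicle library and 4559 without the first calcipotriol library. Genes with an unadjusted p under 0.05 in both genotypes numbered 64, which is 21.3% of the WT list and 3.73% of the p62KO list. The lists hold 301 and 1714 of all 12681 genes tested, so some overlap would arise from their sizes alone. The overlap is therefore not read as a shared response. Of these, 48 were higher in both, 6 lower in both and 10 opposite. Across the 10099 genes with a mean of at least 5 CPM, the 2 genotypes' log2 fold changes had a Pearson correlation of -0.01 and a Spearman correlation of 0.15, and 57.5% of genes had the same sign. These correlations are across genes, which are not independent replicates, and the 2 sets of changes share no library.

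**Figure D5:**
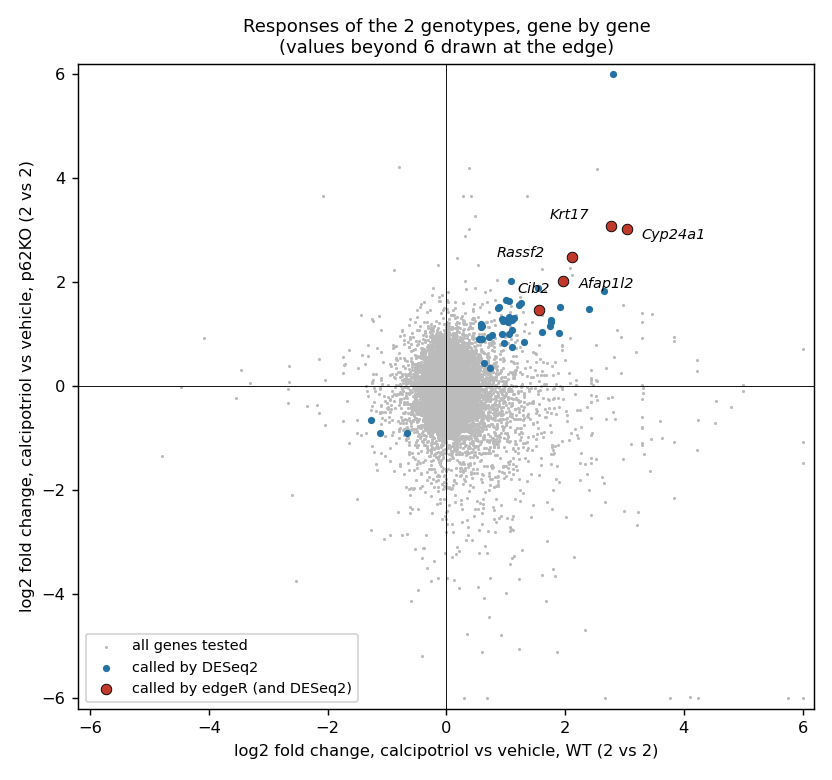
Log2 fold change with calcipotriol in p62KO against that in WT for each of the 12681 genes tested, with blue for the 47 genes called by DESeq2 and red for the 5 called by edgeR, and values beyond 6 drawn at the edge. The red genes lie near the diagonal, the blue ones lie in the upper right and lower left quadrants, and the remaining genes spread along both axes (among the 10099 genes of at least 5 CPM, Pearson correlation -0.01 and Spearman correlation 0.15).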

How the data were processed

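The deposited table lists counts for each gene symbol in a column for each library. It is named for a normalized unit, yet holds integers whose totals vary with the library, and was therefore analysed as raw counts. The build is mm10, per the submitters' processing notes. The aligner, counter and use of strand are not given in the sources used here, so overlapping or antisense genes cannot be told apart. A spreadsheet had turned 27 symbols into dates, which were never named. Genes were tested in R 4.3.3 with edgeR 4.0.16 (quasi-likelihood test, TMM scaling, filterByExpr by the 4 groups), two-sided, with Benjamini-Hochberg adjustment over all 12681 genes and a threshold of 0.05. DESeq2 1.42.0 was an alternative. The additive fit left 5 residual degrees of freedom and the 4-group fit, used within genotypes and for the interaction, 4. CPM are counts relative to the TMM-scaled total, and SE is the log2 fold change divided by the square root of F. The SE covers the spread between libraries. Gene positions come from the reference annotation on GRCm38. The test was run on simulated counts in which every library had the same spread. That check does not cover the unequal spread of these replicate pairs. Intervals and limits from counts cover counting error only.

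Genes named were Cyp24a1, Vdr and Sqstm1, the called genes that averaged 5 CPM or more in the higher arm with no overlap in either genotype, filled up to 6 in each direction by p, and the member of each list with the smallest p. Other genes named were chosen after their values were seen. Some eligible genes are not reported here, though the counts include them. The genes, the 29 lists and the libraries left out were chosen with earlier results of these data known. Replicate numbers were not used to pair the libraries, since the labels do not say that they pair samples. The deviations of same-numbered libraries correlated at 0.00844 between the WT groups and -0.148 between the p62KO groups. These values cannot decide whether the numbers pair libraries. The WT vehicle pair hardly differed (chi-square per degree of freedom 1.66), and each p62KO pair held a library that stood apart. Over all 6 pairs of groups the correlation ran up to 0.433, between WT calcipotriol and p62KO vehicle, whose first replicates were both high in inflammatory genes.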

Additional observations from a re-analysis of the deposited data

Results flagged for a closer look

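Cyp1a1, an enzyme of xenobiotic metabolism under the aryl hydrocarbon receptor, was higher with calcipotriol in WT and lower in p62KO, and it had the smallest interaction p among genes that reached 5 CPM, unnamed gene models left out. It was at 0.272 and 0.268 CPM in WT vehicle, 1.67 and 0.871 CPM in WT calcipotriol, 7.26 and 7.92 CPM in p62KO vehicle and 3.79 and 4.08 CPM in p62KO calcipotriol. The WT levels rest on 4 and 4 counts with vehicle and on 29 and 16 with calcipotriol. Cyp1a1 reached 5 CPM in p62KO alone. Its log2 fold change was 2.20 in WT and -0.946 in p62KO, with an interaction p of 0.000718 in edgeR that did not pass after adjustment (adjusted p = 0.708). Cyp1a1 was chosen after its values were seen.

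The vitamin D receptor target list had both treated WT libraries above both WT vehicle libraries and both treated p62KO libraries below both p62KO vehicle libraries, with a median log2 fold change of 0.196 in WT and -0.281 in p62KO. The autophagy and lysosome list did the same, at 0.111 and -0.227. The difference between the genotypes was not tested for either list. In p62KO the vehicle replicates of the receptor target list lay at 0.08 and -0.08 and the treated ones at -0.09 and -0.27, so the first treated library is within 0.01 of a vehicle library. For the autophagy list these values were 0.13 and -0.13 for vehicle and -0.16 and -0.14 for calcipotriol, a gap of the same order.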

How the results depend on the processing

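The count of 5 genes was the same with RLE scaling, with a 2-fold minimum and with libraries thinned to the smallest total. The replicate block gave 4, without Cib2. DESeq2 gave 47, no filter on low counts 14, no genotype term 1 and the average of the contrasts in a 4-group fit 3. It was 816 without both libraries that stood apart, 0 with a block of crossed replicate numbers in p62KO, an alternative chosen after seeing the data, and 1 to 7 when single libraries were left out (7 without p62KO calcipotriol replicate 2, and 1 without WT vehicle replicate 2). The count of 0 for the interaction became 7 when p62KO vehicle replicate 2 was left out and 2514 when p62KO calcipotriol replicate 1 was, and ranged from 0 to 2514 over all single omissions. Within WT the count was 16 with DESeq2, 345 with the WT libraries alone, 998 with the replicate block added, 283 without both libraries and 0 to 0 with single omissions. Within p62KO it was 53 with DESeq2, 20 with the 4 p62KO libraries and the replicate block, 5 without both libraries, and 0 to 4559 with single omissions (195 without vehicle replicate 2 and 4559 without calcipotriol replicate 1). The causes were not tested. Of 1343 alternative values for 79 named genes, 17 changed sign and none of these had passed the test. Sqstm1 was -0.0756 in the 4-group average and -0.0815 to 0.205 with single omissions. Cyp1a1 was -0.593 without the genotype term and -0.226 to 0.697 with single omissions, Cd14 0.0794 without both libraries and -0.765 to 0.0619, and Tgfb1 -0.0052 to 0.169. Saa3 was 0.175 with the replicate block, 5.43 without both libraries, and -7.80 to 5.28 with single omissions. Of 476 list medians under alternatives, 28 moved by more than the standard deviation of the list's medians in the 4 calcipotriol libraries. That measure spans both genotypes and is wide where they differ. By it, the inflammatory list's change from -0.54 to 0.22 without both libraries did not count as moved. Depth limits Krt17, Inmt and other genes near or under 1 CPM.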
